A study of Mus musculus with 2 samples.

Results

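The genes described here encode the proteins of the cytosolic ribosome, read in single-cell RNA sequencing of mouse liver. Members were all gene symbols of the deposited feature lists that begin with Rpl or Rps and a digit, together with Rplp0, Rplp1, Rplp2 and Rpsa, without pseudogene symbols (-ps) and without the Rps6k kinases. Of 31053 genes listed, 86 matched, and 83 of them had at least 50 unique molecular identifiers (UMIs, each counting 1 captured RNA molecule) over both libraries: 49 large subunit symbols and 34 small subunit symbols. The symbols outside that minimum were Rpl10l with 0 UMIs, Rpl39l with 8 and Rpl3l with 10. Just inside it were Rps19bp1 with 1932 UMIs, Rps27rt with 3353 and Rpl7l1 with 4310. Rps19bp1 and Rpl7l1 match the symbol rule but are not counted among the subunits of the mature ribosome. Fau, whose product is processed into a ribosomal protein, lies outside the symbol rule.

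The study compared C57BL/6 mice fed chow with mice fed a NASH diet (non-alcoholic steatohepatitis, a diet rich in fructose, fat and cholesterol), each for 6.5 weeks, with 1 library of dissociated liver cells per diet. Both groups share the strain and the isolation by collagenase and Percoll of 90% and 25%, and no genotype or drug differs between them per the labels. The sources used here do not say how many mice, of which age and sex, went into a library. The chow library held 7359 barcodes and 71635757 UMIs, and the NASH library 5881 barcodes and 39440182 UMIs, with a median of 4843 and 2305 UMIs and a median mitochondrial share of 20.7% and 34.3%. The libraries share 69 barcode sequences. With 1 library per diet the diets have no replicate check, and no test was made. The 95% intervals given below are exact binomial intervals for shares and exact Poisson intervals for counts. They cover counting error only and leave out the spread between cells and mice.

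A ribosome joins a small and a large subunit, each built from ribosomal RNA and a fixed set of proteins that cells make in matched amounts. In vertebrates most of these messenger RNAs begin with a C followed by a run of pyrimidines, the 5′ terminal oligopyrimidine (TOP) motif, through which LARP1 and the mTORC1 kinase control their translation together with that of elongation factors. Hepatocytes hold many ribosomes on the endoplasmic reticulum, where plasma proteins such as albumin are made. A few members have paralogs that can take their place in the ribosome, among them Rpl22l1 for Rpl22, Rps27l for Rps27 and Rpl36al for Rpl36a.

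Annotated transcription starts were searched for the run of pyrimidines, because it is the sequence feature that members are known to share. RefSeq starts on GRCm38.p6 were at hand for 63 of the 83 members. A run of at least 6 C or T bases that covered the annotated start base, read on the gene's own strand only, stood at 20 of 63 members (31.7%), against 2293 of 27025 genes in the same table (8.48%). Other transcripts known to carry the motif, such as elongation factors, had it in 8 of 18 (44.4%), proteins of the mitochondrial ribosome in 2 of 69 (2.90%) and ribosome biogenesis factors in 0 of 34. Such a run anywhere in the window of 30 bases was found in 38 of 63 members (60.3%) and in 32.7% of all genes. The windows below hold 15 bases before the start and 15 from it, and are shown for the members that the results turn on: the pairs of paralogs, Rpl39 and Rps15a as members that differed by diet or cell group, and Rps6, the protein phosphorylated by S6 kinase. Capitals mark the run of C and T that covers the start base, whatever its length.
Rps27, chr3:90213634-90213663, minus strand: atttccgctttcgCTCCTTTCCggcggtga
Rps27rt, chr9:114982725-114982754, minus strand: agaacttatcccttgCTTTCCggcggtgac
Rps27l, chr9:66946071-66946100, plus strand: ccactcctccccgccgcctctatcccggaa
Rpl22, chr4:152324421-152324450, plus strand: cgctgcttctggaatgttccagctcccact
Rpl22l1, chr3:28805493-28805522, plus strand: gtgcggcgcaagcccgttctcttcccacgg
Rpl36a, chrX:134585639-134585668, plus strand: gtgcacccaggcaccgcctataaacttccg
Rpl36al, chr12:69184053-69184082, minus strand: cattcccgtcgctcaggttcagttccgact
Rpl39, chrX:37085208-37085237, minus strand: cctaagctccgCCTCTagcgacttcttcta
Rps15a, chr7:118116133-118116162, minus strand: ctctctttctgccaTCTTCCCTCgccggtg
Rps6, chr4:86857353-86857382, minus strand: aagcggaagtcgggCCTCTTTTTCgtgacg
Rps27 and its retrogene copy Rps27rt carried a run at the start, and no run covered the annotated start of Rps27l, Rpl22, Rpl22l1, Rpl36a or Rpl36al. A window without capitals says only that these letters did not stand at this annotated start.

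The module was large in both libraries, at 5.51% of non-mitochondrial UMIs in chow and 5.51% in the NASH library. Over all UMIs the shares were 3.63% and 3.42%, and the diets then differed by −0.08 on the log2 scale. Shares are therefore given over non-mitochondrial UMIs unless stated. To compare like barcodes, hepatocyte barcodes were gated by hepatocyte markers, 3000 UMIs or more and a mitochondrial share of 30% or less, which kept 2120 chow and 1142 NASH diet barcodes with a median of 25047 and 19934 UMIs. All 20 hepatocyte markers were detected in both and held 16.2% and 17.8% of UMIs. Markers of other cells were near 0 there: 16 and 17 of 17 endothelial markers were detected but held 0.00062% and 0.0013% of UMIs, 15 and 10 of 15 Kupffer markers 0.0279% and 0.0252%, and 14 and 12 of 24 markers of other leukocytes 0.00061% and 0.00085%. The gate was set by these hepatocyte markers and left out barcodes past the limits of other marker lists. These values therefore describe the gate and are no separate check of it.

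In hepatocyte barcodes ribosomal proteins held 5.30% (5.29 to 5.30) of UMIs in chow and 4.95% (4.94 to 4.96) in the NASH library, a log2 ratio of −0.10. Single barcodes had a median of 4.83% and 4.36%, with a middle 50% from 4.14% to 5.75% and from 3.61% to 5.49%, so the diets overlapped widely. A median of 81 and 80 members were detected per barcode. Small subunit genes gave 41.3% and 41.1% of member UMIs, and in the 1784 and 878 barcodes of at least 10000 UMIs and a mitochondrial share over 10% the Rps share followed the Rpl share with a Pearson r of 0.95 and 0.94, as a description over barcodes of 1 library each. Both shares have 1 total in their denominator, which adds to that correlation. The acute phase list, genes of plasma proteins made in inflammation, held 9.57% of hepatocyte UMIs in chow and 1.36% in the NASH library. With that list taken out of the denominator the log2 ratio of the module between diets was −0.22.

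The levels of single members spanned a wide range, given as counts scaled to equal non-mitochondrial totals (CPM) in hepatocytes. Each UMI marks 1 transcript end, so these levels carry no correction for length. Rpl41 (chromosome 10, 128548114 to 128549305, GRCm38), which encodes a very short basic protein of the large subunit, was highest at 2932 CPM in chow and 2344 in the NASH library. Rpl39 (chromosome X, 37082520 to 37085402), a short protein at the rim of the tunnel through which nascent chains leave, followed at 1531 and 1149 CPM. Rpl37a had 1395 and 1217 CPM, Rps29 1354 and 1238, Rps27a, made as a fusion with ubiquitin, 1127 and 1068, and Rpl23 1127 and 1105. These 6 genes together gave 17.9% and 16.6% of all member UMIs. At the other end 4 members stayed under 100 CPM in both libraries, while 79 exceeded 200 CPM. Of the 20 highest members 18 were the same in both libraries, and the rank correlation of the members' levels was 0.98 over 83 genes, which are not independent replicates.

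Few members differed between the diets in hepatocytes. None of the 83 was higher in the NASH library by 1.5-fold, where 11.2% of the 10665 genes with at least 50 UMIs were, and 1 was lower, against 5.06% of genes. These shares of all genes include genes of few UMIs, which counting error moves more than the members. With a pseudocount of 20 CPM 3.62% of genes were higher and 1.87% lower, and the members stayed at 0 and 1. The median log2 ratio of the members was −0.06, with 27 above 0 and 56 below, and that of all genes was 0.16. When the libraries were scaled by the median ratio of all genes, a shift of 0.18, the members' median became −0.24 with 80 of 83 below 0, and 2 members were lower by 1.5-fold. Members that lie between 0 and this shift in the first scaling therefore change sign in the second.

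The member past the fold was Rpl22l1 (chromosome 3, 28805436 to 28807424), whose product can replace Rpl22. Its level was 417 CPM with chow (411 to 424) and 232 CPM with the NASH diet (225 to 239), which is −0.84 on the log2 scale (−0.90 to −0.80). It was read in 95.5% and 88.1% of hepatocyte barcodes, the median barcode had 377 and 197 CPM, and no barcode held more than 0.57% of its UMIs. The middle 50% of barcodes ran from 237 to 530 CPM in chow and from 102 to 313 in the NASH library, so barcodes of both diets overlapped. Rpl22 itself, whose window above starts without a run, had 383 and 374 CPM, a ratio of −0.03.

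The members next lowest in the NASH library were Rpl39 at −0.41 (−0.44 to −0.39), Rpsa, Rps12, Rps15a and Rpl41. Rpsa (chromosome 9, 120127689 to 120132369), a small subunit protein also known as the laminin receptor precursor, had 823 and 629 CPM, a ratio of −0.39. Rps12 had 582 and 463 CPM (−0.33), Rps15a 644 and 514 (−0.32) and Rpl41 2932 and 2344 (−0.32). Among the highest in the NASH library was Rpl7l1, a relative of Rpl7, with 53.2 and 68.0 CPM (0.35). Rps19bp1, which encodes a binding partner of RPS19, had 24.5 and 28.4 CPM (0.21). Rpl6 had 570 and 640 CPM (0.17), and Rps14 and Rpl35a had 0.16 each. These ratios are all under the fold of 1.5, and the values of Rpl6, Rps14 and Rpl35a lie within the shift between the scalings.

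**Figure D1:**
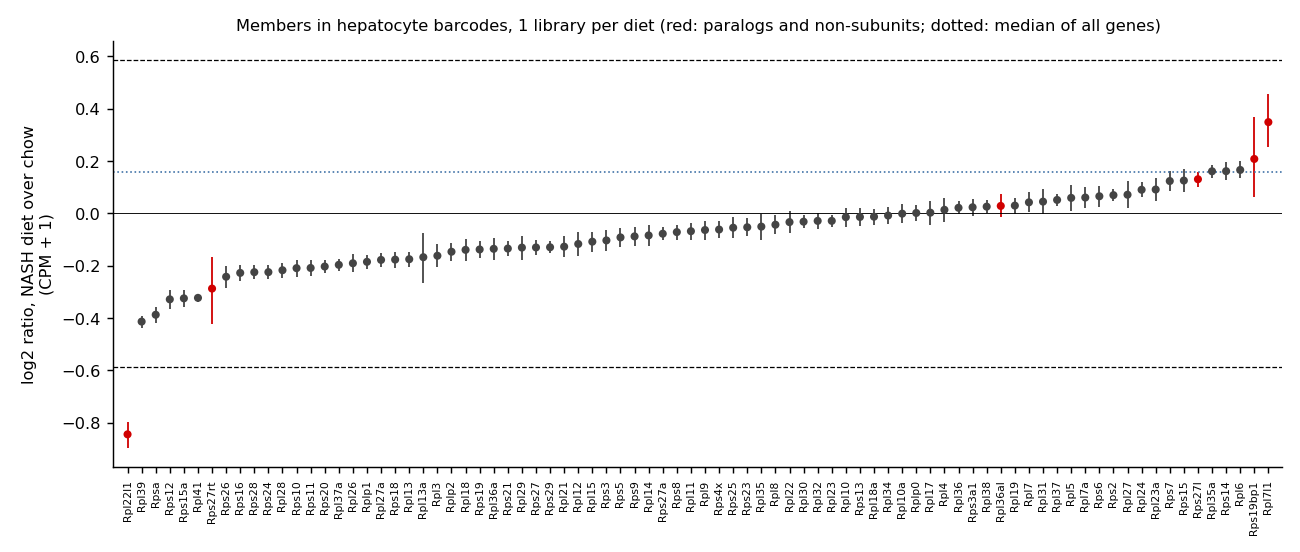
Log2 ratio of CPM (plus 1), NASH diet over chow, of 82 of the 83 members in hepatocyte barcodes, with points at the ratio and bars for the 95% counting interval. Dashed lines mark 1.5-fold and the dotted line the median of all genes at 0.16. Red points are paralogs and genes that are not subunits. Rpl22l1 at −0.84 is the only point past a dashed line.

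Members were also read by their place in the ribosome. Of the stalk that recruits elongation factors, Rplp0 had 606 CPM in both libraries (0.00), Rplp1 1037 and 912 (−0.18) and Rplp2 603 and 544 (−0.15). At the rim of the exit tunnel Rpl17 had a ratio of 0.00, Rpl19 of 0.03, Rpl31 of 0.04, Rpl35 of −0.05, Rpl23a of 0.09 and Rpl26 of −0.19, so that of this list only Rpl39 went below −0.20. Rpl5 and Rpl11, which with the 5S RNA form the particle that can bind MDM2, had ratios of 0.06 and −0.07. Rps6 had 366 and 383 CPM (0.07), and Rps27a −0.08. Among the paralogs, Rps27l had 701 and 767 CPM (0.13), Rpl36al 322 and 328 (0.03) and Rps27rt 46.3 and 37.8 (−0.29).

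The make-up of the module, each member as a share of all member UMIs, is free of the denominator set by other genes. In hepatocytes Rpl22l1 alone of 83 members differed by 1.5-fold between diets, at −0.75, and the median absolute log2 difference was 0.10. Members with a pyrimidine run at the start had a median diet ratio of −0.12 (20 members) and the others with a known start −0.05 (43 members).

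Lists of other genes of translation were read in the same hepatocyte barcodes, as counts past 1.5-fold against the 11.2% higher and 5.06% lower of all genes. Of 23 other TOP transcripts that passed the UMI minimum 1 was higher and 0 lower (median 0.22). Eif4a2, a helicase of initiation, went from 130 to 199 CPM (0.60) and Naca, which shields nascent chains, from 315 to 462 (0.55), while Eef1g had −0.17 and Hnrnpa1 −0.33. Of 32 initiation and termination factors 0 were higher and 1 lower (0.26): Eif1a had 111 and 67.8 CPM (−0.70) and Eif4g3 −0.02, and at the other end Eif4e2 had 0.53 and Eif2b3 0.58. Of 40 ribosome biogenesis genes 5 were higher and 0 lower (0.28), with Rrp12 at 0.79, Nol6 at 0.74, Ubtf at −0.26 and Rrs1 at −0.17. Mitochondrial ribosomal proteins, the counterparts in the other ribosome of the cell, had 5 of 77 higher and 0 lower (0.31), from Mrpl52 at −0.24 and Mrpl54 at −0.08 to Mrps9 at 0.65 and Mrpl9 at 0.73.

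Of 17 genes that control TOP translation 0 were higher and 1 lower (0.23). These included Larp1 at −0.12, Rheb at 0.38 and the mTOR inhibitor Deptor, with 139 and 205 CPM (0.56), and the gene past the fold was Ddit4 at −0.87, with 2.55 and 0.94 CPM. Of 27 nascent chain and quality control genes 0 were higher and 1 lower (0.16). Ssr4, a subunit of the translocon-associated complex, had 269 and 167 CPM (−0.68), and Sec61g, a subunit of the translocation channel, 725 and 488 CPM (−0.57), while Srp14 had 0.35. The member median of −0.06 lay below the median of each of these lists. Over the same barcodes the dissociation response list, immediate early and stress genes, had a median of −0.17 with 2 of 16 higher and 4 lower, and 17 of 18 acute phase genes were lower with a median of −2.13. Their part in the module's values was not tested.

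The module varied more with the mitochondrial share of the barcode than with diet. Hepatocyte barcodes of up to 10% mitochondrial UMIs (238 chow and 147 NASH diet) had ribosomal protein shares of 10.7% and 8.11%, against 4.99% and 4.60% in those over 10 to 30% (1882 and 995). The log2 ratio between these bins was 1.11 in chow and 0.82 in the NASH library. Single barcodes had a median of 10.5% and 8.15% in the low bin, and 92.4% and 75.5% of them lay above the 90th percentile of the other bin. At 30 to 80% mitochondrial UMIs and at least 3000 UMIs the share was 3.31% and 3.07% (274 and 418 barcodes). In barcodes over 80%, where 2570 chow and 1122 NASH diet barcodes held few other UMIs, it was 6.13% and 4.45%. Among gated barcodes of at least 3000 UMIs the order was thus the same in both libraries up to 80%. The group over 80% had no marker gate and no minimum of UMIs. Over all barcodes the shares of the 3 bins up to 80% were 10.6%, 5.05% and 3.61% in chow. In the NASH library they were 9.12%, 5.09% and 5.29%, so the order did not hold there.

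Other measures moved with the low mitochondrial bin. Low bin barcodes held a median of 7088 and 8736 UMIs, against 26377 and 20674 in the bin over 10 to 30%. No UMI of Malat1, a nuclear RNA, was read in 92.0% and 74.1% of low bin barcodes, against 2.34% and 5.23%. Summed over barcodes Malat1 was at 1006 and 484 CPM, against 1265 and 1572. In the low bin this level came from the minority of barcodes that held any. The hepatocyte markers held 9.86% and 14.4% of UMIs, against 16.6% and 18.2%, with Alb at 5261 and 7414 CPM against 32236 and 50888, and Fabp1, a cytosolic fatty acid binding protein, at 20537 and 35818 against 5680 and 12414. At 10000 UMIs and over the low bin barcodes without a Malat1 UMI, 75 of 80 in chow and 42 of 63 in the NASH library, had a share of 11.4% and 7.83%. Those with a Malat1 UMI, 5 and 21, had 9.15% and 8.37%, lower than those without in chow and higher in the NASH library. Over 10 to 30% at the same depth with Malat1 read, the share was 5.01% and 4.59%.

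**Figure D2:**
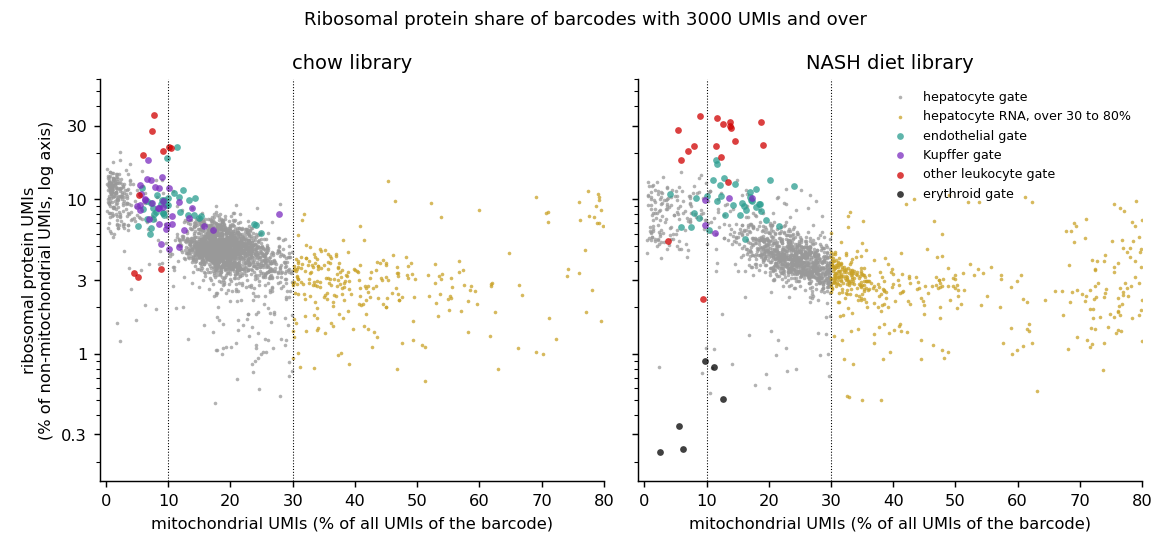
Ribosomal protein UMIs as a percentage of non-mitochondrial UMIs (log axis) against the mitochondrial percentage of each barcode of 3000 UMIs and over, chow on the left and the NASH diet on the right. Each point is 1 barcode, coloured by its marker gate, and dotted lines mark 10% and 30%. Hepatocyte barcodes up to 10% had a median of 10.5% and 8.15%, above the main cloud at 4.71% and 4.20%.

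Most members took part. In chow 56 of 83 members were higher by 2-fold in the low bin, against 13.5% of all genes, and in the NASH library 31 were, against 11.7%. None was lower by 2-fold in either, where 26.3% and 34.7% of genes were. The median ratio was 1.20 and 0.92 for members and −0.36 and −0.52 for all genes, and the 31 members past the fold in the NASH library were all past it in chow. The ratios of the members followed each other between the libraries, with a Pearson r of 0.96 over 83 genes.

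The highest ratio in the low bin was that of Rpl36al (chromosome 12, 69182731 to 69184083), with 274 and 1156 CPM in chow (2.07) and 258 and 962 in the NASH library (1.89). Rpl21 had 343 and 1425 CPM (2.05) and 296 and 1015 (1.78). In chow Rps26 followed at 1.82 and Rpl19 at 1.71, and in the NASH library Rpl15 at 1.55 and Rps3 at 1.54. Rpl23a (chromosome 11, 78180932 to 78183584), a docking site for the signal recognition particle at the exit tunnel, stood apart with 297 and 294 CPM in chow (−0.01) and 326 and 229 in the NASH library (−0.51). The other members with the smallest ratios were Rpl39 at 0.43 and 0.03, Rps28 at 0.46 and 0.00, Rpl41 at 0.45 in chow and Rps15 at −0.08 in the NASH library.

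Short members had smaller ratios. The rank correlation between coding length, taken from the longest annotated coding sequence of each gene, and the low bin ratio was 0.43 in chow and 0.52 in the NASH library over 83 genes. The 10 members of up to 300 nucleotides had medians of 0.56 and 0.15, and the 25 members over 600 nucleotides 1.27 and 1.04. Members with and without a pyrimidine run at the start had medians of 1.09 and 1.23 in chow and of 0.83 and 0.94 in the NASH library. The make-up of the module differed more than between diets, with 4 members higher and 6 lower by 1.5-fold as a share of member UMIs in chow, and 10 and 11 in the NASH library.

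**Figure D3:**
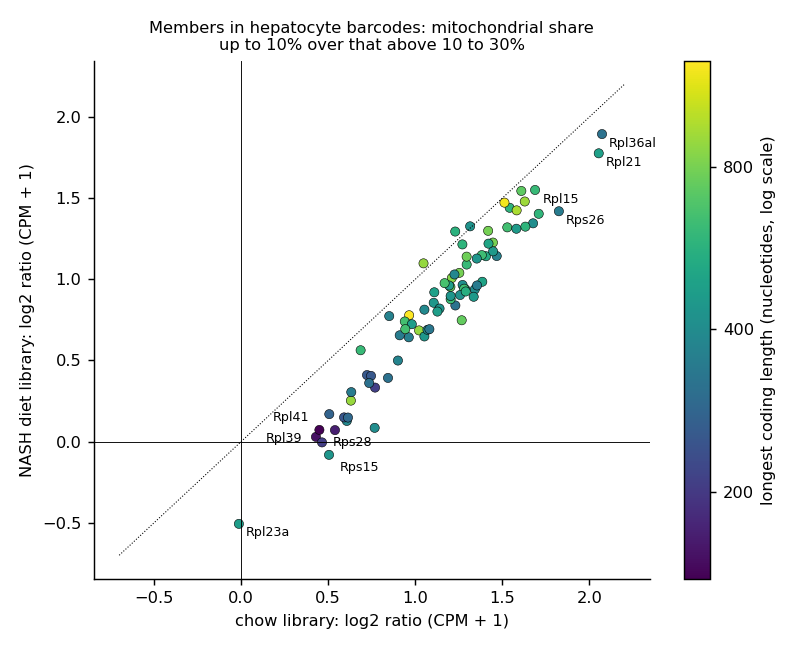
Log2 ratio of CPM (plus 1) in hepatocyte barcodes of up to 10% mitochondrial UMIs over those over 10 to 30%, chow on the x axis and the NASH diet on the y axis, 1 point per member, coloured by coding length in nucleotides (log scale). The dotted line marks equal ratios. Rpl36al and Rpl21 lie at the top, Rpl39, Rpl41, Rps28 and Rps15 near 0 to 0.5, and Rpl23a at −0.01 and −0.51.

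The rest of the translation genes did not all move with the members. Of 77 mitochondrial ribosomal protein genes 71 in chow and 72 in the NASH library were higher by 1.5-fold in the low bin, where 22.6% and 20.8% of all genes were higher and 41.6% and 48% lower, with medians of 1.37 and 1.28. Mrpl22 had ratios of 2.63 and 2.83, Mrps28 2.70 in chow and Mrpl39 2.60 in the NASH library, while Mrpl37 had −0.35 and 0.00 and Mrps2 −0.30 and −0.59. Of 23 other TOP transcripts 14 and 13 were higher and 1 and 3 lower (0.81 in both), from Eef1d at 1.93 and 1.91 and Eif3k at 1.67 and 1.60 to Pabpc1 at −1.37 and −1.64. Initiation factors were split, 14 and 12 of 32 higher and 5 and 9 lower, with Eif3i at 2.09 and 2.11 and Eif4g1 at −1.35 and −1.95. Biogenesis genes had 17 and 14 of 40 higher and 6 and 9 lower, with Ebna1bp2 at 2.23 and 1.86 and Rrp12 at −1.17 and −1.50.

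The list that controls TOP translation had more genes lower than higher, and the nascent chain list was split, beside the shares of all genes given above. Of the control list 3 of 17 and 2 of 16 were higher and 10 and 11 lower, with medians of −0.76 and −1.16: Larp1 had −1.86 and −2.15, Tsc1 −2.22 in chow, and Rheb 1.31 and 1.37. Of 27 nascent chain genes 11 and 10 were higher and 10 and 9 lower, with medians of −0.25 and 0.19 against −0.36 and −0.52 for all genes. Sec61a1, the core of the translocation channel, went from 178 to 20.1 CPM in chow (−3.09) and from 141 to 9.42 in the NASH library (−3.77), and Ssr1 had −1.92 and −2.26, while Btf3, a partner of Naca, had 1.48 and 1.43. Beside these, the hepatocyte marker list had a median of −1.64 in both libraries and the dissociation response list −1.81 and −1.86.

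Barcodes of 30 to 80% mitochondrial UMIs lay on the other side. Of 83 members 43 in chow (7.54% of genes) and 35 in the NASH library (5.83% of genes) were lower by 1.5-fold there than in the bin over 10 to 30%, 30 of them in both, and none was higher, against 6.69% and 3.35% of genes. Rpl35 had the lowest ratio in both libraries, with 242 and 111 CPM in chow (−1.12) and 228 and 107 in the NASH library (−1.08). Rpl36al, with the highest ratio in the low bin, had −1.06 in chow, followed by Rpl22l1 at −0.93 and Rpl9 at −0.92. In the NASH library Rpl34, Rpl35a and Rpl11 had −0.90 each. Among those closest to 0 were Rps15 at −0.08 and −0.05, with Rpl23a at −0.03 and Rps27l at −0.08 in chow and Rpl5 and Rpl7l1 at −0.23 each in the NASH library. The barcodes of 30 to 80% were shallower, with a median of 7320 and 8124 UMIs against 26377 and 20674. Their share was 3.31% and 3.07%. Hepatocyte RNA over 10 to 30% had 3.23% and 4.76% at 3000 to 10000 UMIs, and 4.49% and 4.18% at 10000 to 30000. The part of depth in these ratios was not tested.

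The diet difference depended on the bin. Within the low bin 82 of 83 members had a ratio below 0, with a median of −0.38 against 0.05 for all genes, and 10 were lower by 1.5-fold, a share near the 11.1% of all 5141 genes, while 0 were higher (11.2% of genes). Rpl22l1 had the lowest ratio again, at 722 and 371 CPM (−0.96). It was followed by Rpl39 at 2024 and 1170 (−0.79), Rps12 at 1141 and 688 (−0.73) and Rps26 at 1194 and 743 (−0.68). Rps19bp1 had the highest ratio at 0.13. The ratio followed coding length here, with a rank correlation of 0.61 and medians of −0.56 for the 10 short and −0.27 for the 25 long members. In the bin over 10 to 30% the median was −0.10, with Rpl22l1 the 1 member lower (4.88% of genes) and 0 higher (11.7%). At 30 to 80% the median was −0.11, with 1 of 82 lower (6.5%) and 0 higher (16.3%). In barcodes under 3000 UMIs at 10 to 30% it was 0.05 against 0.36 for all genes, with 3 of 83 lower (11.9%) and 0 higher (34.3%). The low bin of the NASH library held more Malat1-positive barcodes, a lower summed Malat1 level and more hepatocyte marker UMIs than that of chow, as given above. The part of this in the ratios was not tested.

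The share had no single direction with depth. From under 1000 UMIs to 30000 and over, the share in chow was 9.89%, 7.88%, 6.74%, 4.94% and 5.61%, and in the NASH library 8.63%, 8.91%, 5.91%, 4.72% and 5.91%, in bins parted at 1000, 3000, 10000 and 30000 UMIs. Shallow barcodes held the highest shares in both libraries. In hepatocyte RNA of 10 to 30% mitochondrial UMIs the lowest share was at 3000 to 10000 UMIs in chow, at 3.23%, and at 10000 to 30000 UMIs in the NASH library, at 4.18%, and the deepest bin had 5.48% and 5.59%. Barcodes under 3000 UMIs with hepatocyte RNA had 9.65% and 8.96% at up to 10% mitochondrial UMIs and 8.61% and 8.54% over 10 to 30%. At 30 to 80% these shallow barcodes had 6.46% in chow (165 barcodes) and 8.20% in the NASH library (1787 barcodes).

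Within the deep bin of 10 to 30% the share of a barcode had a Pearson r of 0.55 and 0.63 with the logarithm of its UMIs, −0.33 and −0.56 with its mitochondrial share and −0.59 and −0.56 with its hepatocyte marker share, over 1784 and 878 barcodes that each come from 1 library. Where depth and mitochondrial bins were matched, 14 cells of the grid held at least 20 barcodes in both libraries. The weighted mean log2 ratio of NASH diet over chow was −0.14, with 8 of 14 cells lower in the NASH library, and over all UMIs it was 0.03. Cells were weighted by the smaller number of barcodes. The heaviest, over 80% mitochondrial UMIs at 3000 to 10000 UMIs, had 1892 and 992 barcodes and −0.44. At 10000 to 30000 UMIs that bin had −0.36. Its barcodes had no marker gate and few other UMIs. The counted cells up to 80% had both signs, from −0.30 to 0.51, so the mean rests largely on the bin over 80%. The direction by diet therefore depended on the bin and on the denominator.

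Other cell groups were gated by their markers: at least 4 markers of 1 group, together at least 1% of UMIs, and at most 3% hepatocyte marker UMIs. These held few barcodes, 39 chow and 38 NASH diet endothelial, 44 and 13 Kupffer, and 15 and 21 other leukocyte barcodes, and their limits were set with the module's values in view. All 17 endothelial markers were detected in their gate, with Stab2 at 1244 and 955 CPM, all 15 Kupffer markers in theirs, with Clec4f at 4891 and 3431, and 23 of 24 leukocyte markers in theirs, with Cd3e at 167 and 136. The same markers set the gates, so these values are no separate check of them. The hepatocyte markers were still 0.51% to 1.02% of UMIs in these gates, with Alb at 511 to 1392 CPM, so that RNA of hepatocytes and of the cells themselves cannot be told apart for genes both express.

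Summed over barcodes, the endothelial, Kupffer and other leukocyte gates had a higher ribosomal protein share than the whole hepatocyte gate. The leukocyte barcodes rich in S100a8 and S100a9, described further on, lay below it, and hepatocyte barcodes of up to 10% mitochondrial UMIs in chow, at 10.7%, lay above the endothelial and Kupffer sums of that library. Endothelial barcodes had 9.58% (9.45 to 9.71) in chow and 10.7% (10.6 to 10.9) in the NASH library, Kupffer barcodes 9.84% and 9.80%, and other leukocytes 15.1% (14.8 to 15.3) and 20.99% (20.8 to 21.2). As log2 ratios over hepatocytes these were 0.86 and 1.12, 0.89 and 0.99, and 1.51 and 2.09. The 2 and 4 mesenchymal barcodes had 9.91% and 12.5%. The 8 erythroid barcodes of the NASH library had 0.53% (0.46 to 0.61), with Rpl41 at 351 and Rplp0 at 175 CPM, and no chow barcode passed that gate. Erythroid markers held 91.4% of their UMIs. The balance of the subunits differed too: small subunit genes gave 46.1% and 46.8% of member UMIs in endothelial, 44.9% and 45.3% in Kupffer and 46.7% and 45.3% in other leukocyte barcodes, against 41.3% and 41.1% in hepatocytes.

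**Figure D4:**
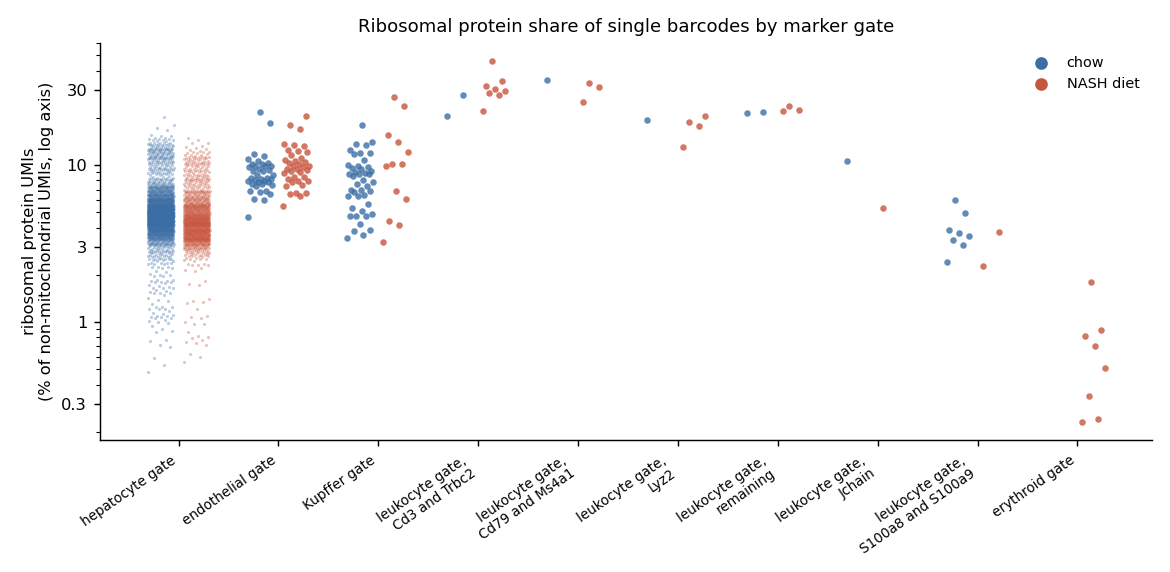
Ribosomal protein UMIs as a percentage of non-mitochondrial UMIs (log axis) in single barcodes by marker gate, chow in blue and the NASH diet in red, with the other leukocyte gate split by the genes named on the x axis. Each point is 1 barcode. Barcodes of the Cd3 and Trbc2 and the Cd79 and Ms4a1 subsets lie at 20.6% to 46.3%, those of the S100a8 and S100a9 subset at 2.27% to 5.98%, and erythroid barcodes at 0.23% to 1.81%. Erythroid markers held 91.4% of the UMIs of the erythroid barcodes and are part of the denominator.

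Counts of members read against all genes differed by group. Higher than in hepatocytes by 2-fold were 36 of 83 members (43.4%) in endothelial barcodes of chow, where 42.5% of all genes were, and 49 (59.0%) in those of the NASH library, where 40.6% were. In Kupffer barcodes 33 (39.8%) and 38 (45.8%) were, against 35.5% and 31.2% of genes, and in other leukocytes 63 (75.9%) and 73 (88.0%), against 25% and 24%. At this fold the endothelial and Kupffer counts of chow are near what all genes give, and the leukocyte counts lie furthest from it. By 1.5-fold they were not near it. In chow 57 members (68.7%) were higher in endothelial and 64 (77.1%) in Kupffer barcodes, against 52.5% and 46.8% of genes. Lower by 1.5-fold were 4 and 0 members, against 28.3% and 29.7% of genes. The other TOP transcripts had 10 of 24 higher by 2-fold in endothelial barcodes of both libraries and 14 of 23 and 17 of 24 in other leukocytes.

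Rps12 had the highest ratio of endothelial barcodes over hepatocytes. It had 582 CPM in hepatocytes and 2069 in endothelial barcodes of chow (1.83), and 463 and 2361 in the NASH library (2.35). Rps14 had 1.80 and 1.92, Rps3 1.72 and Rpl8 1.58 in chow, and Rps9 2.14 and Rps23 1.86 in the NASH library. At the other end were the paralogs. Rps27l (chromosome 9, 66946086 to 66949516) had 701 and 415 CPM in chow (−0.76) and 767 and 375 in the NASH library (−1.03), Rpl36al −0.63 and −0.50, Rpl22l1 −0.68 in chow and Rpl7l1 −0.25 in the NASH library. With the lower hepatocyte level of the NASH library, Rpl22l1 had 0.52 there. Rps19bp1 had only 2 UMIs in endothelial barcodes of chow (−1.26, −4.39 to 0.51) and 5 in those of the NASH library (−0.56).

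In Kupffer barcodes Rps9 had the highest ratio over hepatocytes, with 501 and 1896 CPM in chow (1.92) and 472 and 2389 in the NASH library (2.34). Rplp1 had ratios of 1.86 and 1.92. Rps29 had 1.63 in chow, Rps26 1.54 and 1.98 and Rps12 1.70 in the NASH library. Rps27l was lowest among well counted members, at −0.40 and −0.71, with Rpl36al at −0.02 and −0.38, Rpl22l1 at −0.07 and Rpl13a at 0.00 in chow. In the 13 Kupffer barcodes of the NASH library Rpl7l1 had 1 UMI (−1.86, −7.22 to 0.56) and Rps19bp1 had 0.

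In other leukocytes Rps15a (chromosome 7, 118104372 to 118116188) had 3314 CPM in chow (2.36) and 4667 in the NASH library (3.18). In the NASH library its ratio over hepatocytes, not its level, was the highest of the members. Rps7 had 2.55, Rps9 2.45 and Rpl21 2.43 in chow, and Rpl18 2.96, Rps3 2.92 and Rps24 2.88 in the NASH library. Rps27l was lower than in hepatocytes, with 319 and 307 CPM (−1.13 and −1.32). Rpl7l1 had −0.22 (3 UMIs, −2.50 to 1.33) and 0.14, and Rpl13a 0.56 in the NASH library. Rps19bp1 had 1 UMI in chow (−0.65, −5.99 to 1.79).

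Leukocyte barcodes were far from uniform. After their values had been seen they were split by named genes, in the order S100a8 and S100a9, Jchain, Lyz2, Cd3 and Trbc2, and Cd79 and Ms4a1. A barcode past several limits was counted only in the earliest of these subsets. The 8 chow barcodes with at least 50 UMIs of S100a8 and S100a9, granule genes of neutrophils, had a share of 3.65% (3.40 to 3.91), with single barcodes from 2.41% to 5.98%, and the 2 of the NASH library 2.77%. Barcodes with at least 3 UMIs of Cd3e, Cd3d, Cd3g or Trbc2, parts of the T cell receptor complex, numbered 2 and 8 and had 22.4% (20.6% to 27.9% over barcodes) and 29.6% (22.1% to 46.3%). Those with at least 3 UMIs of Cd79a, Cd79b or Ms4a1, genes of B cells, numbered 1 and 3 and had 35.1% and 30.5%. The 2 and 3 barcodes past none of the limits had 21.7% and 22.7%. Barcodes with at least 50 Lyz2 UMIs, 1 and 4, had 19.4% and 17.5%, and 1 barcode of each library with at least 100 Jchain UMIs, a gene of antibody secreting cells, had 10.7% and 5.37%. In those Jchain barcodes the leukocyte markers themselves held 50.8% and 55.1% of UMIs, and without them in the denominator the shares were 21.7% and 11.95%. For S100a8 and S100a9 barcodes the same step gave 5.03% and 3.90%, still below all other subsets.

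The log2 ratio of NASH diet over chow was 0.48 for the leukocyte gate, in which 8 of 15 barcodes in chow and 2 of 21 in the NASH library were rich in S100a8 and S100a9, and 0.09 without those (20.5% and 21.9%, 7 and 19 barcodes). Within the S100a8 and S100a9 barcodes it was −0.40 (8 and 2 barcodes), and within the Cd3 and Trbc2 barcodes 0.40 (2 and 8). The part of the subsets in the ratio of the gate was not tested. A looser gate of 3 markers and 0.5% of UMIs gave 0.04, −0.17 without the S100a8 and S100a9 barcodes, and −0.04 within Cd3 and Trbc2 (4 and 15 barcodes). Of 79 members that passed the UMI minimum 16 were higher by 1.5-fold in the gate (13.5% of genes) and 0 lower (19.6%), with Rpl3 at 1.20, Rpl5 at 1.16 and Rpl6 at 1.12, and without the S100a8 and S100a9 barcodes 3 were higher (9.95% of genes) and 1 lower (17.6%), with a median of 0.09. In endothelial barcodes the ratio was 0.16, with 4 of 81 members higher (9.64% of genes) and 0 lower (12.1%). The 4 were Rpl23a at 0.85, Rps9 at 0.80, Rpl4 at 0.76 and Rps15 at 0.59. In Kupffer barcodes it was −0.01, with 4 of 79 higher (10.7%) and 1 lower (18.9%): Rpl36a at 0.69, Rpl5 at 0.65, Rps2 and Rpl7 at 0.63, and Rpl39 at −0.64. With 1 library per diet and few barcodes these ratios describe the barcodes read.

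The balance within some pairs of paralogs differed between hepatocytes and other cells, most of all for Rps27l. Rps27l made up 45.9% (45.5 to 46.3) of the UMIs of Rps27 and Rps27l in hepatocytes of chow and 50.4% (49.8 to 51.0) in the NASH library. In endothelial barcodes it was 15.3% (12.4 to 18.6) and 14.2% (11.7 to 17.0), in Kupffer barcodes 29.5% and 33.8%, and in other leukocytes 8.43% (5.30 to 12.6) and 6.26% (4.60 to 8.29). These intervals did not overlap between hepatocytes and any of these groups. In hepatocyte RNA of 30 to 80% mitochondrial UMIs Rps27l reached 56.6% and 56.5%, and over 80% it was 44.0% and 40.5%. The retrogene Rps27rt made up 4.67% to 8.93% of the UMIs of Rps27 and Rps27rt in the other groups and 5.31% and 4.77% in hepatocytes, and its reads may be shared with Rps27.

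Rpl22l1 made up 52.2% (51.6 to 52.7) of its pair with Rpl22 in hepatocytes of chow and 38.3% (37.4 to 39.2) in the NASH library. The difference between diets held in each mitochondrial stratum, with 52.8% and 39.0% at 10 to 30% mitochondrial UMIs, 46.3% and 34.9% at up to 10%, 48.7% and 36.3% at 30 to 80%, and 48.4% and 34.2% over 80%, and under 3000 UMIs it was 44.5% and 34.6% at 10 to 30%. In endothelial barcodes it was 23.3% and 22.7%, in Kupffer barcodes 32.9% and 24.4%, and in other leukocytes 32.4% (23.6 to 42.2) and 28.2% (23.5 to 33.3), where the intervals of the diets overlapped. Rpl36al made up 46.9% and 49.7% of its pair with Rpl36a in hepatocytes, 59.2% and 63.6% in the low mitochondrial bin against 44.7% and 45.6% over 10 to 30%, and 25.3% and 24.4% in endothelial barcodes. In Kupffer barcodes it was 36.3% and 21.9%, and in other leukocytes 48.4% and 38.2%. Rpl7l1 made up 10.98% and 13.3% of its pair with Rpl7 in hepatocytes and 3.57% and 3.74% in other leukocytes.

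**Figure D5:**
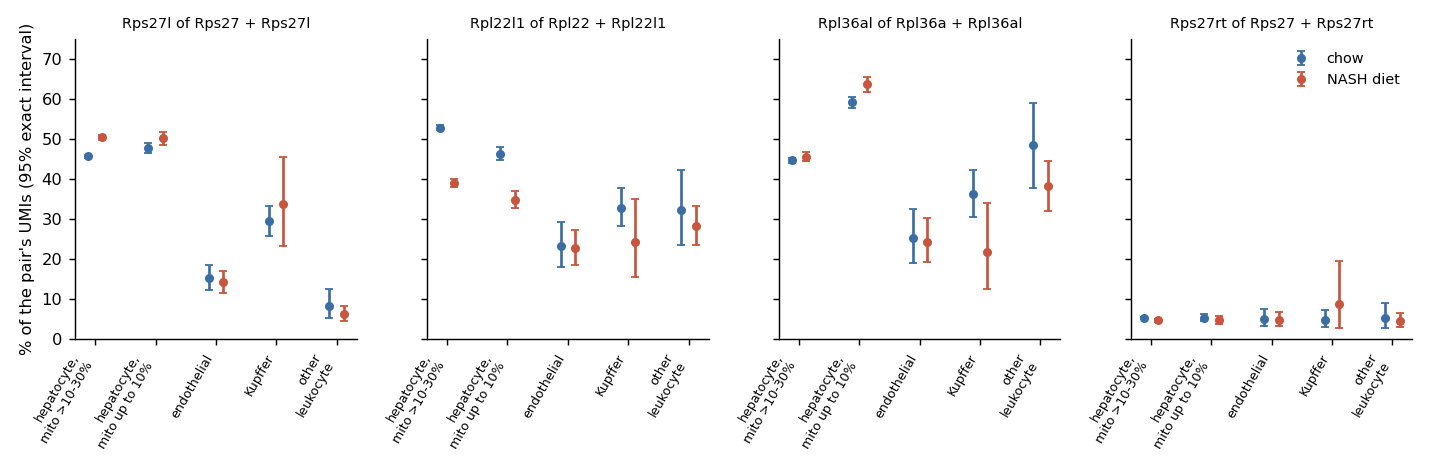
Paralog UMIs as a percentage of the UMIs of its pair, by group, chow in blue and the NASH diet in red, with exact 95% intervals for counting error. Rps27l is 45.7% or more of its pair in both hepatocyte bins plotted and 33.8% or less in the endothelial, Kupffer and other leukocyte gates, Rpl22l1 is lower in the NASH library in hepatocytes, and Rps27rt is nearly level.

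Pseudogene symbols left out by the rule summed to 69.8 CPM in chow and 71.0 CPM in the NASH library over all barcodes, near the level of a low member such as Rpl7l1. Ribosomal protein genes have many processed copies elsewhere in the genome. Members with near-identical copies, Rps27rt and Rpl13a among them, can share or lose reads, so their separate values are uncertain.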

How the data were processed

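UMI counts per gene and barcode were used as deposited. The authors made these counts with Cell Ranger, version 3.0.2 per the file headers and 3.1.0 per the submitters' processing notes, which also name Seurat and build mm10 (GRCm38). Annotation and read filters are not stated in the sources used here. Each library's own matrix was used, and a merged matrix, in which chow holds 86.4% of its UMIs, served as an alternative. Totals per library are in the report. Gene positions and coding lengths came from GENCODE mouse release 21, which held 83 of 83 members and 30934 of 31053 gene identifiers. Start windows came from RefSeq.

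Member UMIs were summed over barcodes and divided by non-mitochondrial UMIs. Log2 ratios used CPM plus a pseudocount of 1, for genes with at least 50 UMIs over the groups compared, and a gene was called by a fold of 1.5 or 2. That minimum holds for the sum of both groups, so the shares of all genes include genes of few UMIs in every comparison. The hepatocyte gate needed 10 markers, a marker share of 5%, no other marker gate, 3000 UMIs and at most 30% mitochondrial UMIs. Barcodes that passed more than 1 non-parenchymal gate, 16 in chow and 9 in NASH, were left out as possible doublets, and no doublet caller was run. Gate limits, mitochondrial bins and leukocyte subsets were set with the module's values in view. The members and gene lists were chosen with earlier results of these data known. No mesenchymal ratio was made from so few barcodes.

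Genes were named by a rule. In hepatocytes it took the 6 members of highest CPM in chow, the 6 highest and 6 lowest ratios and all members with a listed role. In each comparison of mitochondrial bins or cell groups it took the 4 highest and 4 lowest ratios, and from each other list the 2 highest and 2 lowest. In the diet comparisons within other groups the members named are those past the fold or with the most extreme ratios, chosen after their values were seen. Some of the items that this rule names are not reported here. The scripts were tested on simulated data. Python 3.11.15, NumPy 2.4.6, SciPy 1.17.1, pandas 2.3.3 and Matplotlib 3.10.9 were used. Alternatives changed the denominator, pooling, gates, depth, pseudocount and scaling.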

Additional observations from a re-analysis of the deposited data

Results flagged for a closer look

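The ribosomal protein share had opposite directions by diet in different groups of barcodes. In gated hepatocytes the log2 ratio of NASH diet over chow was −0.10. It was 0.16 in endothelial barcodes, 0.48 in other leukocytes and 0.34 in hepatocyte RNA of 30 to 80% mitochondrial UMIs and under 3000 UMIs. With 1 library per diet the difference between these groups was not tested. The leukocyte value was 0.09 without the barcodes rich in S100a8 and S100a9, and the shallow group held 165 chow and 1787 NASH barcodes with a median of 1779 and 1022 UMIs. The part of cell make-up and depth in these values was not tested.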

How the results depend on the processing

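No paired analysis was possible because each diet has 1 library and the labels give no replicate numbers, and for the same reason no library could be left out. Values are log2 ratios. The share by diet over all barcodes (0.00) became −0.085 over all UMIs, 0.050 as the mean over barcodes, −0.034 in the merged matrix and 0.0051 without paralogs and non-subunits. In hepatocytes (−0.10) it was −0.16, −0.11 and −0.13 under the first 3 of these, −0.22 without the acute phase list, −0.18 without the 20 most abundant genes, −0.40 at up to 10% mitochondrial UMIs, −0.14 with no such limit, −0.11 from 10000 UMIs, −0.063 from 1000 UMIs, −0.15 without the barcodes of most UMIs and −0.12 over 10 to 30% only. Over all UMIs, endothelial over hepatocyte was 0.98 in chow and 1.26 in NASH, Kupffer 1.05 and 1.13, other leukocyte 1.68 and 2.29, and the low over middle mitochondrial bin 1.38 and 1.15. As means over barcodes these were 0.78 and 1.06, 0.62 and 1.21, 1.24 and 2.25, and 1.12 and 0.89. The merged matrix gave 0.83 for endothelial and 1.47 for leukocyte barcodes of chow. The looser gate gave 0.81 and 1.08 for endothelial, 1.13 for Kupffer in NASH, and 2.15 and 2.28 for leukocyte barcodes, and a hepatocyte marker limit of 5% gave 1.10 for endothelial in NASH, 0.91 and 1.03 for Kupffer and 2.06 for leukocytes in NASH. From 10000 UMIs the mitochondrial ratio was 1.17 and 0.80. In all 36 of these group and bin values the ratio stayed above 0. The ratio of barcodes of 30000 UMIs and over to those of 1000 to 3000 (−0.49 and −0.59) was 0.69 and −0.36 over all UMIs, so that chow reversed, and −0.31 and −0.70 at 10 to 30% mitochondrial UMIs. The matched grid (−0.14) gave 0.032 over all UMIs. Of the members lower by 1.5-fold between diets in hepatocytes there were 2 under median ratio scaling, Rpl22l1 and Rpl39, and 10 at up to 10% mitochondrial UMIs, where the count by share of the module was 0, against 1 in each as reported. The causes were not tested. For the main results 20 values under alternatives stayed within their limit, 51 moved past it and 1 reversed. The limit was the counting interval, or 1.5-fold for counts of members. For single named members 76 values moved by less than their interval, 56 by more, and 0 reversed. The settings on gates, mitochondrial bins, depth and module make-up, and the restriction to 10 to 30%, were chosen after seeing the data. The few non-parenchymal barcodes limit their values: Rpl7l1 rests on 1 UMI in Kupffer barcodes of NASH.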
